A study of Homo sapiens with 12 samples.

Results

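Aldehyde dehydrogenase transcripts were followed across 4 related HER2-positive breast cancer lines. The genes were ALDH1A1, ALDH1A2, ALDH1A3, ALDH1B1, ALDH2, ALDH3A1, ALDH3A2, ALDH3B1 and ALDH3B2, that is, 9 of the 19775 genes measured. They were found by symbol, and every probe set that the array's annotation pairs with 1 of them alone was read, which gave 17 of 41097 such probe sets. The main probe set of a gene is its brightest one by the mean of the 12 arrays, and its other probe sets are given beside it.

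SKR6 is a population of SKBR-3, an established human breast cancer line with amplified HER2, that was enriched by cell sorting for high HER2. All other lines were made from it, so they share its origin and its HER2 sort. SKR6-Vector carries the empty retrovirus pQCXIP and was selected with puromycin. SKR6CA received a retrovirus with constitutively active p65 (RELA), a subunit of the transcription factor NF-κB, and was selected with puromycin. SKR6LR was grown for several months in lapatinib, an inhibitor of the HER2 and EGFR kinases, raised from 0.2 to 5 µM. The growth protocol gives 0.2 µM lapatinib for cells it names SKLR, and all lines were grown for 48 h in serum before RNA was taken. Each line was measured in 3 biological replicates. Each is a single line per treatment, and the sources used here do not give whether the replicates go back to separate transductions or selections. The tests therefore measure the spread among cultures of 1 line. SKR6CA was compared with SKR6-Vector for active p65 beside the vector, and SKR6-Vector with SKR6 for the vector and puromycin. SKR6LR was compared with SKR6, its parent, for lapatinib selection. With 1 line per treatment, a treatment and a trait of the line that received it cannot be told apart. In SKR6LR, selection, months of culture and any lapatinib kept in the medium cannot be told apart either.

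Aldehyde dehydrogenases oxidise aldehydes to carboxylic acids with NAD or NADP as cofactor. The ALDH1A enzymes turn retinal into retinoic acid, the ligand of the nuclear retinoic acid receptors, and high ALDH1 activity is widely used to sort stem-like cells from breast tissue and breast tumours. ALDH2 and ALDH1B1 act in mitochondria, where ALDH2 clears the acetaldehyde made from ethanol. ALDH3A2 oxidises long-chain fatty aldehydes, and its loss causes Sjögren-Larsson syndrome. ALDH3A1 is an abundant enzyme of the cornea and a known target of the aryl hydrocarbon receptor, and ALDH3B1 and ALDH3B2 are lipid-associated members that act on medium and long-chain aldehydes.

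Values are log2 expression, and 1 unit is a doubling. The array medians lay between 5.74 and 5.77, and the lower quartiles between 4.42 and 4.46. No detection call was used, so whether a value near the lower quartile is above background is unknown. The SKR6LR arrays stood apart, with correlations of 0.918 to 0.938 to arrays of the other lines, against 0.988 to 0.990 among different lines without SKR6LR. The excess of 3′ over 5′ signal on the actin control was 2.32 in SKR6LR replicate 3 and 1.03 to 1.73 on the other arrays. Without that array, 7 ALDH genes still passed the test between SKR6LR and SKR6, as with it. ERBB2, which encodes HER2, was lower in SKR6LR than in SKR6 by all 3 probe sets, with a log2 difference of -1.38 on the main one (limma, adjusted p = 6.38e-10). RELA did not pass the test between SKR6CA and SKR6-Vector on either probe set (limma, adjusted p = 0.771 and 0.239). Whether these probe sets match the introduced p65 sequence is not given, so they do not check the label. The 7 luminal markers had a mean level of 12.8 to 13.3 on every array, but single markers moved in opposite directions. Between SKR6LR and SKR6, GATA3, KRT18 and KRT8 were higher (2.10, 0.63 and 0.45). ERBB2, GRB7 and KRT19 were lower there, the first 2 by -1.38 and -1.28. Between SKR6-Vector and SKR6, 2 were higher and 0 lower, with GATA3 at 1.77. Basal or myoepithelial markers, of which 4 of 6 were measured, had a mean level of 9.15 to 9.47 in SKR6LR and 5.49 to 6.16 elsewhere. ACTA2, KRT14 and KRT5 passed between SKR6LR and SKR6 (7.13, 5.36 and 2.65), and the lowest of the 4 gave -0.11. ACTA2 also passed between SKR6-Vector and SKR6 (2.16) and between SKR6CA and SKR6-Vector (-1.38). The 6 fibroblast markers had a mean level of 6.09 to 6.18 in SKR6LR and 5.23 to 5.40 elsewhere, but only COL3A1 passed between SKR6LR and SKR6 (4.92), and the median over the 6 was -0.02. The 4 of 5 leukocyte markers measured stood at 5.04 to 5.12 and 4.56 to 4.70, and only CD14 passed (1.72). The mean level of the 4 endothelial markers was also higher in SKR6-Vector than in SKR6. It was 5.23 to 5.33 in SKR6, 5.81 to 6.06 in SKR6-Vector, 5.93 to 6.04 in SKR6CA and 6.35 to 6.43 in SKR6LR. Of these markers, CDH5 alone passed between SKR6-Vector and SKR6 (2.96), and CDH5 and VWF passed between SKR6LR and SKR6 (3.83 and 0.62). The part of these markers in the SKR6-Vector and SKR6LR differences given here was not tested. A lower share of cells with a transcript and less transcript per cell cannot be told apart in these bulk RNA samples.

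The promoter windows of ALDH1A1 and ALDH1A3 are shown because both genes stood higher in SKR6-Vector than in SKR6 and lower in SKR6CA than in SKR6-Vector, while their windows differ in composition. RefSeq promoter windows of 300 bases, from 250 before to 50 after the start site, matched 6 of the 9 genes (ALDH1A1, ALDH1A2, ALDH1A3, ALDH1B1, ALDH3A2 and ALDH3B1). The 250 bases before the start site are printed 5′ to 3′ on the gene's strand, in build GRCh38.p14. ALDH1A1 lies at chr9:72953054-72953303 on the minus strand and ALDH1A3 at chr15:100879581-100879830 on the plus strand. Capitals mark GCGTG or its reverse complement CACGC, the core bound by the aryl hydrocarbon receptor.
ALDH1A1: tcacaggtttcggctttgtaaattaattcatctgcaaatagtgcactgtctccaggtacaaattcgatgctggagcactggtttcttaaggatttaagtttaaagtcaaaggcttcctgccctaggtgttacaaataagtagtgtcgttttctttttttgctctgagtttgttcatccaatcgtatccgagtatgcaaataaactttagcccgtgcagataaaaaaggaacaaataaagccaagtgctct
ALDH1A3: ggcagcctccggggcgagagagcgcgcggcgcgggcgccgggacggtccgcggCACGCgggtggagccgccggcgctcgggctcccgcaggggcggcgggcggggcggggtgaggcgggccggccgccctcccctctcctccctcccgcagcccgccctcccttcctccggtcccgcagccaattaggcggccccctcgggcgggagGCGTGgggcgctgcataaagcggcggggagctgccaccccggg
The 300-base window of ALDH1A1 was 40.3% GC with 7 CpG, and that of ALDH1A3 was 81.7% GC with 46 CpG. The median over 27305 windows was 58.3% GC and 14 CpG. Both strands were searched for GCGTG, for the antioxidant response core TGACNNNGC and for the κB motif. GCGTG was found at 2 positions in ALDH1A3 and at 2 in ALDH1A2, and none of the 3 motifs was found in the windows of ALDH1A1, ALDH1B1, ALDH3A2 and ALDH3B1. Among all windows 36.3% held GCGTG, 13.6% held TGACNNNGC and 5.72% held the κB motif. The motifs do not overlap in these windows, and a match is a description of letters only.

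ALDH1A1 had the widest range among the 9 genes, 3.65 log2 units between its highest and lowest line mean. It read 5.00, 5.03 and 4.82 in SKR6, 7.51, 7.75 and 7.59 in SKR6-Vector, 4.57, 4.29 and 4.15 in SKR6CA, and 3.89, 3.97 and 4.04 in SKR6LR. The 3 vector arrays were high, and no line overlapped another. ALDH1A1 rose in SKR6-Vector over SKR6 by a log2 difference of 2.66 ± 0.106 (SE), 6.34-fold (limma, adjusted p = 3.62e-09). It was lower in SKR6CA than in SKR6-Vector by a log2 difference of -3.28, which is 9.73-fold (limma, adjusted p = 5.64e-10). These comparisons share the vector arrays. Against SKR6 itself, SKR6CA differed by -0.62 (limma, adjusted p = 0.00123). SKR6LR was below SKR6 by -0.99, 1.98-fold (limma, adjusted p = 4.15e-06), and below SKR6CA by -0.37 (limma, adjusted p = 0.0118). Each step of the order SKR6-Vector, SKR6, SKR6CA, SKR6LR passed the test. The SKR6CA and SKR6LR values lie near or below the lower quartile of the arrays, and the SKR6 values lie below the array medians. None of these values was shown to be above background. The folds against these lines, that of SKR6-Vector over SKR6 included, and the steps between them are therefore uncertain.

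**Figure D1:**
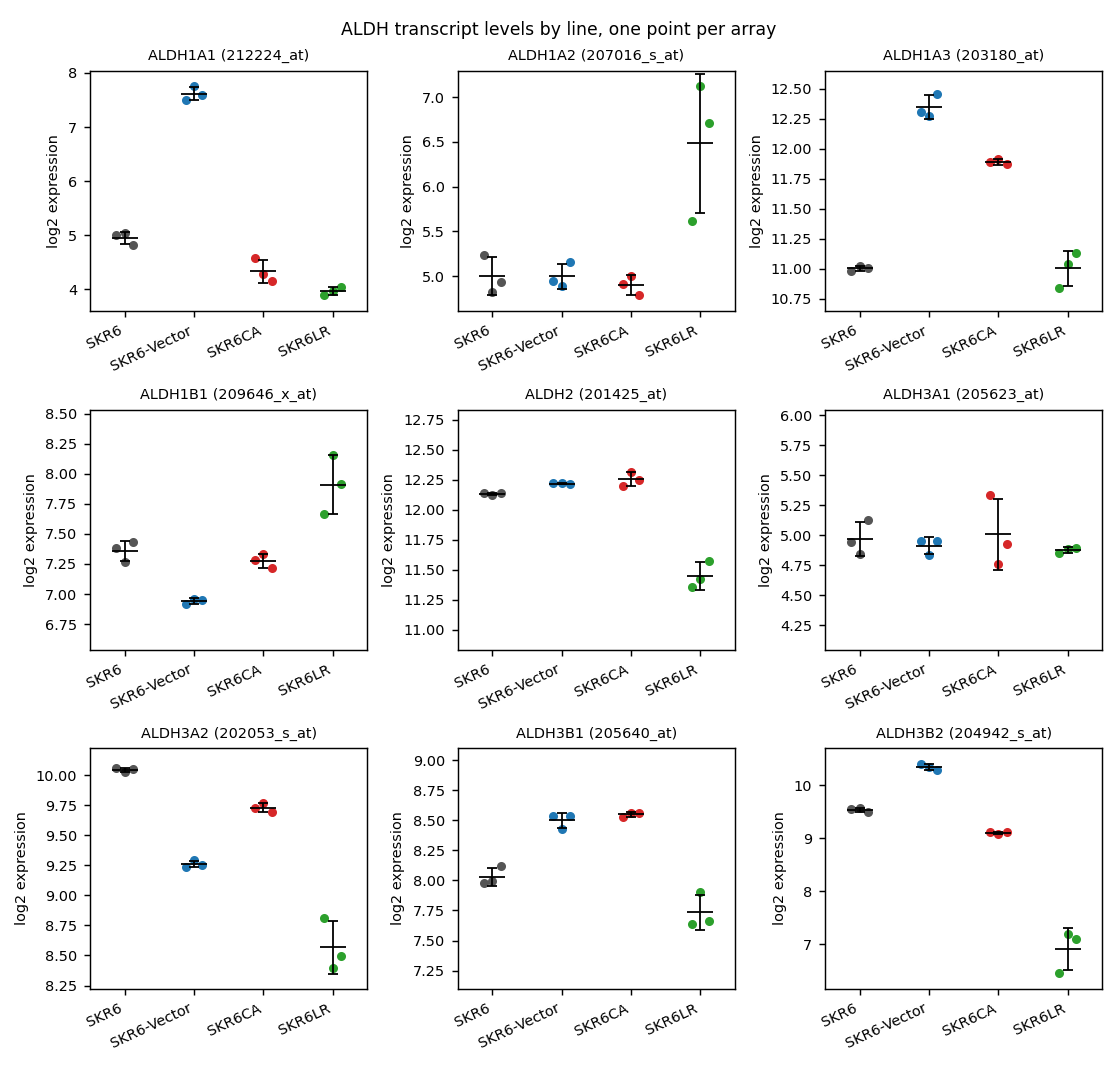
Log2 expression of each ALDH gene (vertical axis, 1 panel per gene by its main probe set) in the 4 lines (horizontal axis), with 1 point per array and bars for the mean ± SD of 3 arrays. ALDH1A1 is highest in SKR6-Vector at 7.51 to 7.75, ALDH1A2 is raised in SKR6LR with 1 array at 5.61 and the others at 6.71 and 7.12, and ALDH3A1 shows no separation of the lines.

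ALDH1A3, which makes retinoic acid and is often linked to ALDH activity in breast cancer cells, had a pattern of smaller size. It read 10.98, 11.02 and 11.01 in SKR6, 12.31, 12.27 and 12.46 in SKR6-Vector, 11.89, 11.92 and 11.87 in SKR6CA, and 10.84, 11.04 and 11.13 in SKR6LR. The vector arrays were again the highest, the SKR6CA arrays lay between them and SKR6, and SKR6LR overlapped SKR6. SKR6-Vector exceeded SKR6 by 1.34 ± 0.078 (SE), 2.53-fold (limma, adjusted p = 1.03e-07). SKR6CA was lower than SKR6-Vector by -0.45, 1.37-fold (limma, adjusted p = 0.00092). It stayed above SKR6 by 0.89 (limma, adjusted p = 6.36e-06). SKR6LR and SKR6 had a difference of 0.00024 with a 95% interval of -0.169 to 0.170 (limma, adjusted p = 0.999), so a difference beyond that interval was not found. A second ALDH1A3 probe set, 1558649_at, read 4.56 to 5.21 over all arrays, below their medians and not shown to be above background, and passed no test. Its correlation with the main one over 12 arrays was 0.109.

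ALDH1A2, the retinal dehydrogenase that makes most of the retinoic acid of the early embryo, differed only in SKR6LR on its main probe set. Its values were 5.23, 4.83 and 4.93 in SKR6, 4.94, 4.89 and 5.15 in SKR6-Vector, 4.91, 5.00 and 4.79 in SKR6CA, and 5.61, 7.12 and 6.71 in SKR6LR. All 3 SKR6LR arrays lay above every other array, and replicate 1 lay well below the other two. The log2 difference from SKR6 was 1.49 ± 0.277 (SE), 2.80-fold (limma, adjusted p = 0.000534), and ranged from 1.17 to 1.92 when 1 array was left out. The second probe set, 207015_s_at, did not follow. It read 4.51, 4.56 and 4.79 in SKR6LR against 4.76, 4.75 and 4.85 in SKR6, a difference of -0.17 (limma, adjusted p = 0.158), and the 2 probe sets correlated at -0.518 over 12 arrays. The second probe set read below the median of the arrays in every line and was not shown to be above background. The rise therefore rests on probe set 207016_s_at alone. That probe set also read below the array medians in SKR6, SKR6-Vector and SKR6CA. It was not shown to be above background there, so the fold of the rise is uncertain. ALDH1A2 did not pass the test between SKR6CA and SKR6-Vector (-0.10, 95% interval -0.697 to 0.505) or between SKR6-Vector and SKR6 (95% interval -0.602 to 0.601). These intervals use the spread shared by all lines, and the SD was 0.780 in SKR6LR and 0.107 to 0.212 in the others.

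ALDH1B1, a mitochondrial enzyme close in sequence to ALDH2, was lowest in SKR6-Vector and highest in SKR6LR. It read 7.38, 7.27 and 7.43 in SKR6, 6.92, 6.96 and 6.95 in SKR6-Vector, 7.28, 7.33 and 7.21 in SKR6CA, and 7.67, 8.16 and 7.91 in SKR6LR. Only SKR6 and SKR6CA overlapped. SKR6LR exceeded SKR6 by 0.55 ± 0.101 (SE), 1.47-fold (limma, adjusted p = 0.000481), and the second probe set, 209645_s_at, rose by 0.87 in that comparison (limma, adjusted p = 0.00131). SKR6-Vector was below SKR6 by -0.42 (limma, adjusted p = 0.01005). SKR6CA was above SKR6-Vector by 0.33 (limma, adjusted p = 0.0316), and this call was lost when any 1 of the 6 arrays of these lines was left out (adjusted p = 0.0522 to 0.103). The second probe set passed neither of these last tests (0.10 between SKR6CA and SKR6-Vector, -0.28 between SKR6-Vector and SKR6).

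ALDH2, the mitochondrial acetaldehyde dehydrogenase, was lower in SKR6LR alone. It read 12.13, 12.12 and 12.14 in SKR6, 12.22, 12.22 and 12.21 in SKR6-Vector, 12.20, 12.32 and 12.25 in SKR6CA, and 11.35, 11.42 and 11.57 in SKR6LR. The SKR6LR arrays lay below all others, and the other 9 arrays lay between 12.12 and 12.32. SKR6LR differed from SKR6 by -0.68 ± 0.0661 (SE), 1.60-fold (limma, adjusted p = 1.55e-06). No pair among SKR6, SKR6-Vector and SKR6CA passed the test, and the interval between SKR6CA and SKR6-Vector was -0.106 to 0.181. The SKR6-Vector and SKR6CA arrays nevertheless all lay above the SKR6 arrays. The test uses a spread shared by all lines, and the SD was 0.113 in SKR6LR and 0.00933 in SKR6.

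ALDH3A2, the fatty aldehyde dehydrogenase, was highest in SKR6 and lowest in SKR6LR. Its values were 10.06, 10.03 and 10.05 in SKR6, 9.24, 9.29 and 9.25 in SKR6-Vector, 9.73, 9.77 and 9.70 in SKR6CA, and 8.81, 8.39 and 8.50 in SKR6LR. No line overlapped another, and every step of the order SKR6, SKR6CA, SKR6-Vector, SKR6LR passed the test. SKR6LR was below SKR6 by -1.48 ± 0.0897 (SE), 2.79-fold (limma, adjusted p = 1.63e-08), and both other probe sets fell too, by -1.37 and -1.28. SKR6-Vector was below SKR6 by -0.78, 1.72-fold (limma, adjusted p = 4.31e-05), and the other probe sets gave -0.57 and -0.42, both called. SKR6CA was above SKR6-Vector by 0.47 (limma, adjusted p = 0.00193). In that last comparison probe set 202054_s_at rose by 0.22 (limma, adjusted p = 0.0346), and 210544_s_at gave -0.06 (limma, adjusted p = 0.829).

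ALDH3B2 fell further in SKR6LR than any other of the 9 genes. It read 9.56, 9.56 and 9.49 in SKR6, 10.40, 10.34 and 10.29 in SKR6-Vector, 9.11, 9.07 and 9.12 in SKR6CA, and 6.46, 7.18 and 7.10 in SKR6LR. No line overlapped another. SKR6LR differed from SKR6 by -2.62 ± 0.142 (SE), 6.16-fold (limma, adjusted p = 5.04e-09). On the second probe set, 204941_s_at, the difference was smaller, with 5.12, 5.06 and 5.13 in SKR6LR against 5.63, 5.83 and 5.57 in SKR6, a log2 difference of -0.57 (limma, adjusted p = 7.58e-05). SKR6-Vector exceeded SKR6 by 0.81, 1.75-fold (limma, adjusted p = 0.00124), with 0.77 on the second probe set. SKR6CA was lower than SKR6-Vector by -1.24, 2.37-fold (limma, adjusted p = 3.73e-05), with -0.75 on the second probe set. Against SKR6, SKR6CA was lower by -0.44 on the main probe set (limma, adjusted p = 0.0478) and did not pass the test on the second (0.03).

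ALDH3B1 was higher in both transduced lines than in SKR6. It read 7.98, 7.995 and 8.12 in SKR6, 8.54, 8.43 and 8.54 in SKR6-Vector, 8.53, 8.56 and 8.56 in SKR6CA, and 7.64, 7.90 and 7.66 in SKR6LR. The transduced lines overlapped each other and lay above all SKR6 arrays, and the SKR6LR arrays lay below all others. SKR6-Vector exceeded SKR6 by 0.47 ± 0.0781 (SE), 1.39-fold (limma, adjusted p = 0.000815), and SKR6CA exceeded it by 0.52 (limma, adjusted p = 0.000474). SKR6CA and SKR6-Vector had a difference of 0.05 with an interval of -0.120 to 0.219 (limma, adjusted p = 0.748). SKR6LR was lower than SKR6 by -0.30 (limma, adjusted p = 0.00648), a call that ended under cyclic loess scaling (-0.17, adjusted p = 0.0979). Of the other probe sets, 211004_s_at rose by 0.32 in SKR6-Vector over SKR6 (limma, adjusted p = 0.0222) and did not pass in SKR6LR (-0.06), and 1565731_at passed no test.

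ALDH3A1 had only 1 probe set and passed no test between any pair of lines. It read 4.84 to 5.13 in SKR6, 4.83 to 4.96 in SKR6-Vector, 4.76 to 5.34 in SKR6CA and 4.85 to 4.89 in SKR6LR. All lines overlapped. The interval for SKR6LR against SKR6 was -0.359 to 0.172, and that for SKR6CA against SKR6-Vector was -0.172 to 0.358.

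**Figure D2:**
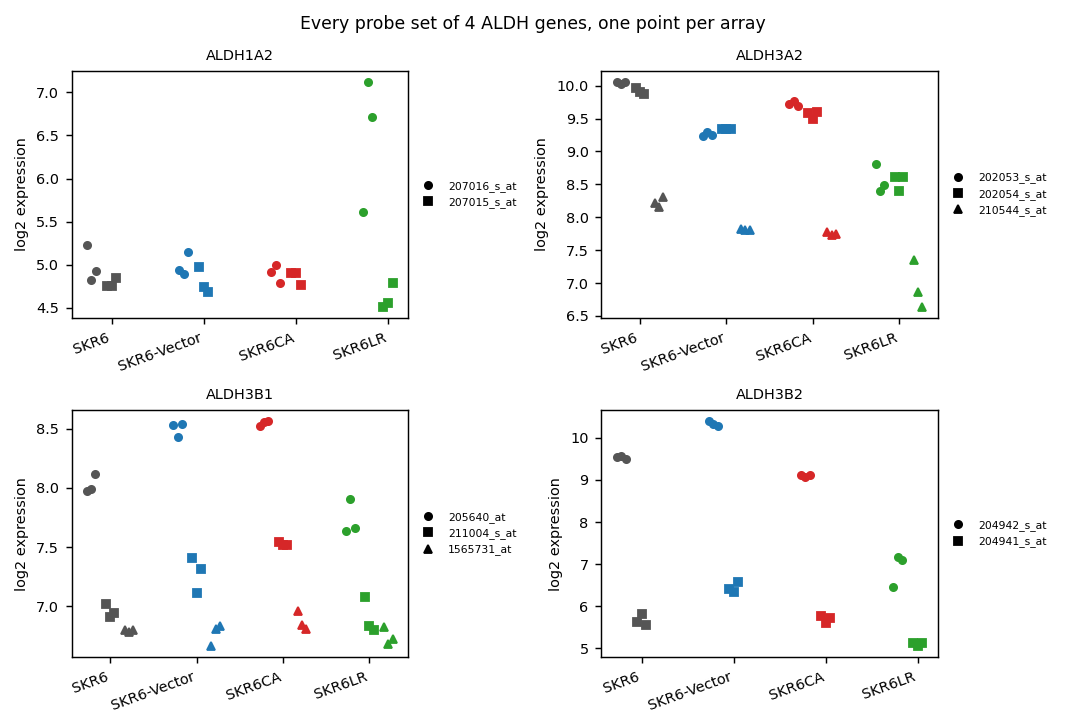
Log2 expression (vertical axis) of every probe set of ALDH1A2, ALDH3A2, ALDH3B1 and ALDH3B2 in the 4 lines (horizontal axis), with 1 point per array and a marker shape per probe set. The 3 probe sets of ALDH3A2 fall together in SKR6LR, while ALDH1A2 is raised there on 207016_s_at at 5.61 to 7.12 and not on 207015_s_at at 4.51 to 4.79.

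Counted by main probe set, 5 of the 9 genes passed the test between SKR6CA and SKR6-Vector, against 25.1% of all genes (10.9% higher and 14.2% lower). ALDH1B1 and ALDH3A2 were higher in SKR6CA, ALDH1A1, ALDH1A3 and ALDH3B2 were lower, and ALDH1A2, ALDH2, ALDH3A1 and ALDH3B1 did not pass. The median difference over the 9 genes was 0.04 and over all genes 0.0033. Without ALDH1B1, whose call was lost with any array of these lines left out, 4 calls remain. Between SKR6LR and SKR6, 7 of 9 passed, against 51.3% of all genes (21% higher and 30.3% lower), with ALDH1A2 and ALDH1B1 higher and ALDH1A1, ALDH2, ALDH3A2, ALDH3B1 and ALDH3B2 lower. The median over the 9 was -0.30 and over all genes -0.06. The lower-weighted split over all features turned with the scaling, from 8286 probe sets higher and 11640 lower to 10015 higher and 9465 lower under cyclic loess, where ALDH3B1 alone of the 7 genes lost its call. Between SKR6-Vector and SKR6, 6 of 9 passed, against 23.7% of all genes (11.4% higher and 12.3% lower), with ALDH1A1, ALDH1A3, ALDH3B1 and ALDH3B2 higher and ALDH1B1 and ALDH3A2 lower. The median over the 9 was 0.09 and over all genes -0.02. Here the split over probe sets was 4117 higher and 4392 lower, and 4643 higher and 3683 lower under cyclic loess. The vector arrays enter the first and the last comparison with opposite sign, and the SKR6 arrays enter the last 2, so the directions in these comparisons are not independent of each other. SKR6CA was also set against SKR6, and 5 of 9 passed, against 22.5% of all genes (9.23% higher and 13.3% lower), with ALDH1A3 and ALDH3B1 higher and ALDH1A1, ALDH3A2 and ALDH3B2 lower. SKR6LR was lower than SKR6CA for 6 genes and higher for 2, against 48.8% of all genes called (21.3% higher and 27.5% lower), and ALDH3A1 alone did not pass. The count of SKR6LR against SKR6-Vector was again 6 lower and 2 higher, against 49.1% of all genes (21% higher and 28.1% lower).

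**Figure D3:**
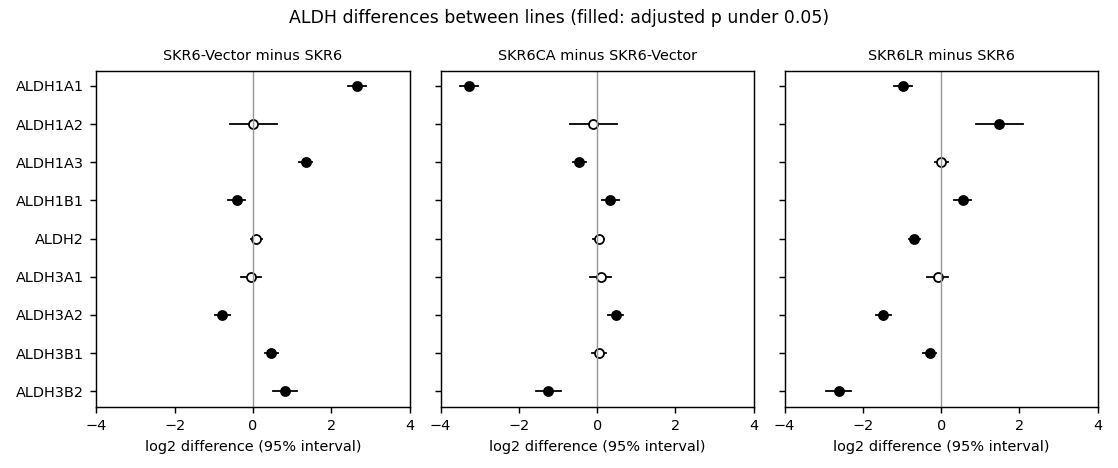
Log2 difference with its 95% interval (horizontal axis) for each ALDH gene (vertical axis) in SKR6-Vector minus SKR6, SKR6CA minus SKR6-Vector and SKR6LR minus SKR6, with filled points for an adjusted p under 0.05 and open points otherwise. ALDH1A1 runs from 2.66 in the first panel to -3.28 in the second, and ALDH3B2 reaches -2.62 in the third.

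The contrast with active p65 (SKR6CA against SKR6-Vector) and that with lapatinib selection (SKR6LR against SKR6) share no arrays, so their difference could be tested. Their baselines are not the same line, and SKR6-Vector itself differed from SKR6 for 6 of the 9 genes. The tested difference therefore also holds the shift of SKR6-Vector from SKR6. With 1 line per treatment, active p65 and a trait of the vector line cannot be told apart in it. The difference passed for 7 of the 9 genes, against 44.1% of all genes. ALDH1A1 was lower in both comparisons and less so in SKR6LR, with a difference of 2.30 (limma, adjusted p = 5.72e-08). SKR6-Vector stood above SKR6 by 2.66, and that shift enters the 2.30. Against SKR6 itself the order was the reverse, at -0.62 in SKR6CA and -0.99 in SKR6LR. The difference also rests on the same low SKR6, SKR6CA and SKR6LR values. ALDH3B2 was lower in both and more so in SKR6LR on the main probe set (-1.38, limma, adjusted p = 9.18e-05), which did not hold on the second probe set (0.18, limma, adjusted p = 0.277). The second probe set is dim, with means of 5.67 in SKR6 and 5.10 in SKR6LR, which leaves little room for a fall. ALDH3A2 was higher in one and lower in the other, with a difference of -1.95 (limma, adjusted p = 5.57e-08), and its other probe sets gave -1.59 and -1.22, both called. ALDH1B1, higher in both, did not pass on its main probe set (0.22, limma, adjusted p = 0.261) but passed on the second (0.77, limma, adjusted p = 0.0292). ALDH3A1 did not pass.

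Genes with the profile most like that of an ALDH gene were found for the 3 members with the widest range, by the smallest root-mean-square difference of centred log2 values over the 12 arrays. For ALDH1A1 these were ARHGEF26-AS1, SYTL5 and ANKRD22, with root-mean-square differences of 0.244, 0.302 and 0.356 and correlations of 0.991, 0.985 and 0.980. For ALDH3B2 they were RPS6KA6, ZNF503 and RAP1GAP (0.244, 0.256 and 0.259). For ALDH1A2 they were IL32, LINC00622 and TNNT1 (0.153, 0.165 and 0.172). The 12 points share 4 lines, so the correlations describe mainly the line means.

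The other aldehyde dehydrogenases were read for comparison, against shares of all genes called of 25.1% for SKR6CA against SKR6-Vector, 51.3% for SKR6LR against SKR6 and 23.7% for SKR6-Vector against SKR6. Of 10 further genes of the superfamily, 0 were higher and 3 lower in SKR6CA than in SKR6-Vector by limma, 3 higher and 4 lower in SKR6LR than in SKR6, and 1 each way in SKR6-Vector against SKR6. ALDH8A1, which acts in the kynurenine pathway, read 3.55 to 3.62 in SKR6 and 9.55 to 9.60 in SKR6LR, a log2 difference of 6.002 (limma, adjusted p = 1.97e-14). ALDH4A1 (proline breakdown), ALDH9A1 (aminobutyraldehyde) and ALDH6A1 (valine breakdown) fell in SKR6LR by -1.43, -1.32 and -0.83. ALDH7A1, the lysine pathway enzyme, was lower in SKR6CA than in SKR6-Vector by -0.62 (limma, adjusted p = 0.00183).

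Among the genes that supply retinal to the ALDH1A enzymes, 11 of 14 listed were measured, and 1 was higher and 2 lower in SKR6CA than in SKR6-Vector, 3 higher and 5 lower in SKR6LR than in SKR6, and 4 higher and 1 lower in SKR6-Vector than in SKR6, against 25.1%, 51.3% and 23.7% of all genes called. RDH10, which oxidises retinol to retinal, read 10.65 to 10.68 in SKR6, 11.36 to 11.45 in SKR6-Vector, 11.75 to 11.83 in SKR6CA and 12.13 to 12.26 in SKR6LR, with no overlap between lines. Its SKR6LR difference was 1.54 (limma, adjusted p = 1.86e-10), and of its 4 probe sets 3 were higher and 1 lower there. DHRS3, which reduces retinal back to retinol, rose in SKR6-Vector by 1.57 and fell in SKR6LR by -1.36.

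Of the genes that bind, break down or sense the retinoic acid made by ALDH1A enzymes, 10 of 12 were measured. In SKR6CA against SKR6-Vector 1 was higher and 3 lower, in SKR6LR against SKR6 2 were higher and 5 lower, and in SKR6-Vector against SKR6 3 were higher and 1 lower, against 25.1%, 51.3% and 23.7% of all genes called. CYP26A1, the enzyme that breaks down retinoic acid and is itself induced by it, read 4.34 to 4.57 in SKR6 and 9.28 to 10.12 in SKR6LR, a log2 difference of 5.27 (limma, adjusted p = 3.04e-11). It was also higher in SKR6-Vector than in SKR6, by 0.79, and lower in SKR6CA than in SKR6-Vector, by -0.76. FABP5, a carrier of retinoic acid, rose by 1.36 in SKR6-Vector and by 2.70 in SKR6LR and was lower in SKR6CA than in SKR6-Vector by -1.63. CRABP2, which carries it to the retinoic acid receptors, fell by -1.07 in SKR6-Vector and by -1.08 in SKR6LR and was higher in SKR6CA than in SKR6-Vector by 0.99.

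Of 11 listed retinoic acid target genes 10 were measured, and 3 were higher and 1 lower in SKR6CA than in SKR6-Vector, 3 higher and 2 lower in SKR6LR than in SKR6, and 3 higher and 1 lower in SKR6-Vector than in SKR6, with 25.1%, 51.3% and 23.7% of all genes called. The 5 of 10 called in SKR6LR lie near that share. CYP26A1, CYP26B1, DHRS3, STRA6 and RARB stand in this list and in 1 of the former. RARRES1, a retinoid-induced surface protein, was higher in SKR6CA than in SKR6-Vector by 1.90 (limma, adjusted p = 4.85e-07), with all 3 probe sets higher. TGM2, a transglutaminase, rose in SKR6LR by 4.93 (limma, adjusted p = 3.28e-07) over a wide range of 9.09 to 11.44, with 3 of 4 probe sets called. RARB, the receptor gene with a known retinoic acid response element, read 4.92 to 5.17 in SKR6 and 4.90 to 5.07 in SKR6LR and did not pass.

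**Figure D4:**
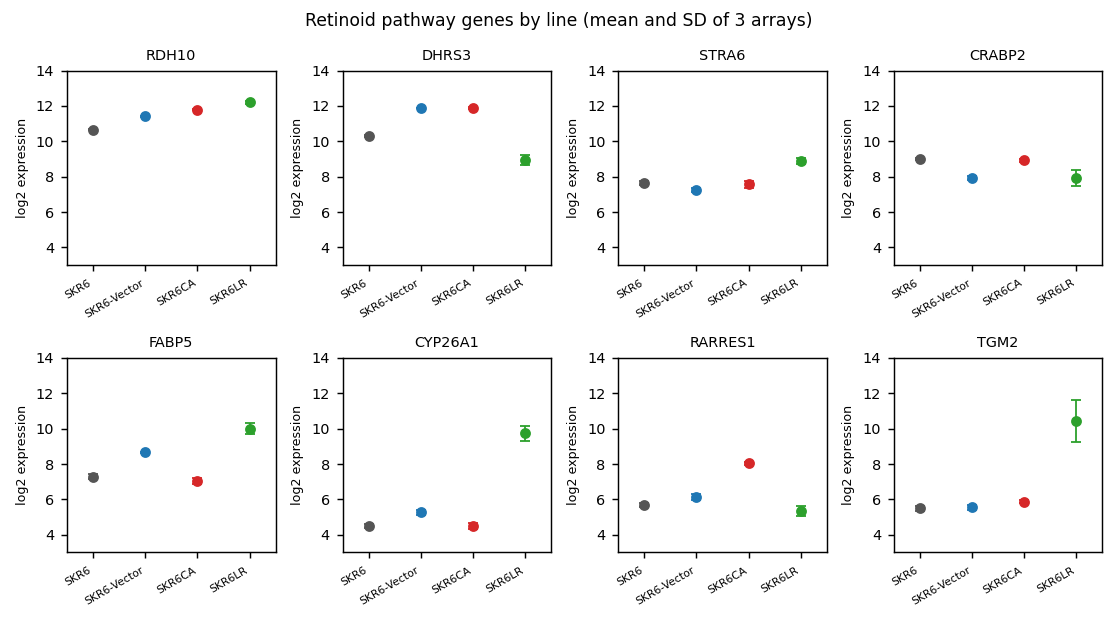
Mean log2 expression ± SD of 3 arrays (vertical axis, 1 panel per gene) in the 4 lines (horizontal axis) for 8 genes of retinal supply, retinoic acid handling and retinoic acid response. CYP26A1 and TGM2 stand high in SKR6LR alone, at means of 9.74 and 10.44, and RARRES1 stands high in SKR6CA at 8.03.

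Other routes of aldehyde formation and removal were counted in the same way, in the order SKR6CA against SKR6-Vector, SKR6LR against SKR6 and SKR6-Vector against SKR6. In that order 25.1%, 51.3% and 23.7% of all genes were called. Of 10 alcohol dehydrogenase and ethanol oxidation genes, which feed ALDH2, 0 were higher and 1 lower, then 3 higher and 1 lower, then 1 higher and 0 lower by limma. ADH1C read 4.40 to 4.62 in SKR6, 6.01 to 6.81 in SKR6-Vector, 4.47 to 4.59 in SKR6CA and 4.18 to 4.34 in SKR6LR, so the vector arrays stood above all others as they did for ALDH1A1. Of 10 measured aldo-keto and carbonyl reductases, which reduce aldehydes to alcohols, 3 were higher and 1 lower, then 1 higher and 6 lower, then 1 higher and 6 lower. Of 12 amine oxidases, which form aldehydes, 1 was higher and 1 lower, then 5 higher and 1 lower, then 1 higher and 3 lower. Of 10 measured genes of glutathione conjugation, which removes 4-hydroxynonenal, 2 were higher and 3 lower, then 1 higher and 7 lower, then 1 higher and 4 lower.

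Of 6 measured genes of fatty and sphingolipid aldehyde steps, which supply or consume the substrates of ALDH3A2, 2 were higher and 3 lower, then 2 higher and 3 lower, then 2 each way in the same order of comparisons, against 25.1%, 51.3% and 23.7% of all genes. FAR2, a fatty acyl-CoA reductase, read 11.26 to 11.28 in SKR6, 10.19 to 10.28 in SKR6-Vector, 11.24 to 11.28 in SKR6CA and 6.17 to 7.30 in SKR6LR. Its SKR6LR difference was -4.45 (limma, adjusted p = 7.91e-10), with 2 of 3 probe sets lower.

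Of 8 aryl hydrocarbon receptor genes, the pathway known to control ALDH3A1, 2 were higher and 4 lower, then 2 higher and 5 lower, then 3 higher and 0 lower by limma, against 25.1%, 51.3% and 23.7% of all genes. CYP1A1, the classical target, read 9.60 to 9.68 in SKR6, 10.03 to 10.08 in SKR6-Vector, 5.77 to 6.18 in SKR6CA and 11.35 to 11.65 in SKR6LR. No line overlapped another for CYP1A1, while ALDH3A1 overlapped in all 4 lines and passed no test. ALDH3A1 was not shown to be above background on its only probe set, so whether it moved with CYP1A1 is unknown.

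Of 10 surface markers used beside ALDH activity to sort breast stem and progenitor cells, 1 was higher and 3 lower, then 4 higher and 1 lower, then 2 each way, against 25.1%, 51.3% and 23.7% of all genes. The 5 of 10 called in SKR6LR again lie near the share of all genes. PROM1 (CD133) was lower in SKR6-Vector than in SKR6 by -0.83. It was higher in SKR6CA than in SKR6-Vector by 0.99 and higher in SKR6LR than in SKR6 by 1.39. ITGA6 (CD49f) read 4.03 to 4.13 in SKR6 and 10.55 to 10.90 in SKR6LR, a difference of 6.60 (limma, adjusted p = 1.95e-14). CD44 was higher in SKR6LR by 1.83 on its main probe set, with 10 of 13 probe sets higher, and lower in SKR6CA than in SKR6-Vector by -2.56, with 3 of 13 lower.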

How the data were processed

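Total RNA from 12 cultures of 4 lines was read as biotin-labelled cRNA on 3′ expression arrays of 54675 probe sets, per the labels' protocols. The deposited values are log2 values, and the submitters' processing notes name RMA and limma without versions or parameters. RMA puts all arrays on 1 distribution, so levels are read relative to the other arrays. Differences near background can be compressed. The number of arrays limits the precision.

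Gene names came from the 2016 annotation of the platform, updated by gene ID from RefSeq for 41043 of the 41097 single-gene probe sets. The 1801 probe sets of several genes and 11777 unnamed ones were not used. The tests used lmFit and eBayes of limma 3.58.1 (R 4.3.3), with a mean per line and 1 spread per probe set over all 12 arrays. Replicates varied more in SKR6LR, with a median SD of 0.125 against 0.0707 to 0.0843 in the other lines. The shared spread can therefore be too small for SKR6LR and too large for pairs of the other lines. Benjamini-Hochberg adjustment ran across all single-gene probe sets, and genes pass where the adjusted p is under 0.05. A gene is called by its probe set with the highest mean, and the fit was tested on simulated data with known differences. The simulation gave all lines the same spread per probe set and changed 200 probe sets. It therefore did not cover the wider spread of SKR6LR or the many differences called here. The members and the gene lists were chosen with earlier results of these data known. From each list at most 4 called genes with the largest difference could be named per comparison, and list genes were named beyond it only where they did not pass (RARB). Promoters come from RefSeq, build GRCh38.p14. The alternatives were leaving out each array, the replicate number as a block, 1 probe set per gene, cyclic loess, median centring, a trended and robust spread, array or line weights, a fit on the arrays of the compared lines alone, dropping dim probe sets, leaving out those with the suffix _x_at or _s_at (which can match several transcripts) and an adjusted p under 0.01.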

Additional observations from a re-analysis of the deposited data

Results flagged for a closer look

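The effect SKR6LR minus SKR6 differed from the effect SKR6CA minus SKR6-Vector for 7 ALDH genes by a test of the difference itself (limma, adjusted p from 5.57e-08 to 0.0233). The 2 effects have different baselines, so their difference also holds the shift of SKR6-Vector from SKR6. Against SKR6 itself, ALDH1A1 differed by -0.62 in SKR6CA and -0.99 in SKR6LR. ALDH1A3 was lower in SKR6CA than in SKR6-Vector by -0.45 but above SKR6 by 0.89. The log2 difference between these effects was 2.30 for ALDH1A1, 1.58 for ALDH1A2 and 0.45 for ALDH1A3. It was -0.72 for ALDH2, -1.95 for ALDH3A2, -0.35 for ALDH3B1 and -1.38 for ALDH3B2. The value for ALDH1A2 rests on 1 of 2 probe sets, since the other gave -0.23 (adjusted p = 0.192). That for ALDH3B1 lost its call without SKR6 replicate 3 (-0.30, adjusted p = 0.0629), SKR6-Vector replicate 2 (-0.31, adjusted p = 0.0614) or SKR6LR replicate 3 (-0.31, adjusted p = 0.0513), and under cyclic loess scaling (-0.22, adjusted p = 0.132). ALDH3B1 did not pass on its other probe sets (-0.30 on 211004_s_at, limma, adjusted p = 0.0758, and -0.15 on 1565731_at, limma, adjusted p = 0.250). ALDH1A3 gave -0.35 on its second and dimmer probe set, which did not pass (limma, adjusted p = 0.139). Both other probe sets of ALDH3A2 passed (-1.59 and -1.22). The value for ALDH3B2 was 0.18 on its second and dimmer probe set, which did not pass (adjusted p = 0.277). ALDH1B1 did not pass on its main probe set (0.22, adjusted p = 0.261), where it passed without SKR6LR replicate 1 (0.34, adjusted p = 0.0246). Its second probe set passed on all arrays (0.77, adjusted p = 0.0292).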

How the results depend on the processing

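The number of ALDH genes called was 5 for SKR6CA against SKR6-Vector, 7 for SKR6LR against SKR6 and 6 for SKR6-Vector against SKR6. Without _x_at and _s_at probe sets it was 2, 3 and 3, since 4 of the 9 genes (ALDH1A2, ALDH1B1, ALDH3A2 and ALDH3B2) have no other probe set. For single ALDH genes, 769 of 795 recomputed differences kept their direction and their side of the threshold, 14 lost a call, 1 gained one and 11 changed sign, none of which was called. The sign changes were ALDH1A3 in SKR6LR against SKR6 (-0.0624 to 0.0809 with an array left out, of which 3 were negative, -0.0115 with median centring), ALDH1A2 in SKR6-Vector against SKR6 (-0.0860 to 0.118 with an array left out, 0.0174 with cyclic loess, 0.00087 with median centring), and ALDH3A1 with an array left out (-0.0710 to 0.216 in SKR6CA against SKR6-Vector, -0.120 to 0.0218 in SKR6-Vector against SKR6). The cause was not tested.

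Over all genes, 9197 probe sets were called for SKR6CA against SKR6-Vector, and 5251 with 1 probe set per gene and 5755 without _x_at and _s_at, where fewer are tested. In the same order the counts were 19926, 10345 and 12537 for SKR6LR against SKR6, 8509, 5073 and 5144 for SKR6-Vector against SKR6, 8002, 4810 and 4952 for SKR6CA against SKR6, 18843, 9878 and 11768 for SKR6LR against SKR6CA, 18995, 9919 and 11947 for SKR6LR against SKR6-Vector, and 16795, 8972 and 10459 for the difference of effects. At an adjusted p under 0.01 the counts were 5409 for SKR6-Vector against SKR6 and 4728 for SKR6CA against SKR6. SKR6-Vector against SKR6 gave 13168 with array weights and 13111 with 1 weight per line. Without _x_at and _s_at, fewer list genes are tested, so calls over the 3 main comparisons are given with the number of tests. They went from 18 of 30 to 9 of 24 for aldo-keto reductases and from 12 of 36 to 6 of 21 for amine oxidases. Glutathione genes went from 18 of 30 to 10 of 21. Aryl hydrocarbon receptor genes went from 16 of 24 to 9 of 15, and stem markers from 13 of 30 to 7 of 15.

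Replicate numbers did not pair the arrays, with correlations of same-numbered deviations of -0.0547 to 0.0771 over 18 pairs. With the replicate number as a block the ALDH counts stayed 5, 7 and 6, and 8830, 19655 and 8083 probe sets were called.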

Other observations

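The genes beside the ALDH genes on the chromosome were read as a description. ANXA1, the neighbour of ALDH1A1, had means of 5.47 in SKR6, 6.53 in SKR6-Vector, 5.19 in SKR6CA and 12.8 in SKR6LR. It was higher in SKR6-Vector than in SKR6 by 1.06 and lower in SKR6CA than in SKR6-Vector by -1.34, as ALDH1A1 was. In SKR6LR, however, it rose by 7.32 while ALDH1A1 fell (limma, adjusted p = 3.89e-14 for ANXA1). TMC1, on the other side of ALDH1A1, had means of 4.24 to 4.32 and passed none of these tests. SHB, beside ALDH1B1, moved the other way from ALDH1B1 in all 3 main comparisons, with 0.48 in SKR6-Vector against SKR6, -0.31 in SKR6CA against SKR6-Vector and -0.69 in SKR6LR against SKR6. LRRK1, beside ALDH1A3, was higher in SKR6-Vector than in SKR6 by 0.49 and lower in SKR6CA than in SKR6-Vector by -0.40. It rose in SKR6LR by 0.37, where ALDH1A3 gave no call. These neighbours were singled out after their values were seen.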
